A study of Mus musculus with 6 samples.

Results

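The genes described here are 10 receptors of the dorsal root ganglion (DRG) that couple to inhibitory G proteins of the Gi/o class: the opioid receptors Oprm1, Oprd1, Oprk1 and Oprl1, the cannabinoid receptor Cnr1, the alpha-2 adrenergic receptors Adra2a and Adra2c, the neuropeptide Y receptors Npy1r and Npy2r, and the somatostatin receptor Sstr2. They were listed by name as receptors at which pain-relieving drugs or peptides act; no measured value enters the rule, although earlier results of these data were known when the list was made. All 10 were found among the 47937 genes and loci of the count table, and all 10 were among the 20006 genes with enough reads to be tested. RNA sequencing was done on DRGs of 3 wild type mice, called control below, and 3 Tlx3f/f;SNS-cre mice, called Tlx3cko below, all on the C57BL/6 strain and about 2 months old. Total RNA was extracted from cervical, thoracic and lumbar ganglia together. In Tlx3cko mice both Tlx3 alleles carry sites for Cre recombinase, and Cre is driven by the regulatory sequence of Scn10a, the gene of the sodium channel Nav1.8 (also called SNS), which is on in most nociceptors from late embryonic life. Other DRG cells keep Tlx3, and the labels give the control mice neither the floxed allele nor Cre.

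Gi/o-coupled receptors act as brakes on sensory neurons. An activated receptor releases Gi/o alpha subunits, which inhibit adenylyl cyclase, and beta-gamma subunits, which close presynaptic calcium channels and open inwardly rectifying potassium channels, so that the terminal releases less transmitter. Opioids, cannabinoids, clonidine-like drugs, neuropeptide Y and somatostatin analogs dampen pain or itch signals through receptors of this class on nociceptors, on other DRG neurons or in the spinal cord.

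The libraries held between 11458299 and 18775628 counted reads. Values below are normalized counts, meaning reads counted on a gene after scaling every library to the same effective size, and errors are SDs over 3 mice. Tlx3 RNA stood at 72.7% of control, with 1828, 2262 and 2433 reads in control mice and 1717, 1052 and 1475 in Tlx3cko mice. The change on the log2 scale was -0.46 (adjusted p = 0.0122 by the edgeR quasi-likelihood F-test, Benjamini-Hochberg adjusted), and the call was lost without control replicate 2 (adjusted p = 0.0606), without Tlx3cko replicate 2 (0.0910), without Tlx3cko replicate 3 (0.0706), and with control replicate 3 alone (0.175). Of 8 neuronal markers only Scn10a, which is a nociceptor gene rather than a marker of all neurons, passed the threshold (higher, 1.35-fold). The summed level of the other 7 ran from 113433 to 121645 normalized counts in control and from 118573 to 127188 in Tlx3cko libraries, which overlapped, while the sympathetic neuron marker Hand2 was at 0 reads in all 6 libraries. Control replicates 1 and 2 had 591 and 493 Xist reads and 0 Ddx3y reads. Control replicate 3 had 1 read on Xist and 525 on Ddx3y, and the Tlx3cko libraries had at most 2 on Xist and 273 to 390 on Ddx3y. Sex was thus unequal between the groups. A comparison with control replicate 3 alone is given where it changes the call of Tlx3, a receptor or a pathway gene. Calls of marker genes outside the pathway lists were not examined in this way, nor with single libraries left out.

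Of the 10 receptor genes, 3 were higher and 2 were lower in Tlx3cko DRGs past the threshold, a Benjamini-Hochberg adjusted p under 0.05 over all genes tested in the edgeR quasi-likelihood F-test, and 5 did not pass. Oprl1 rose 2.30-fold, Oprd1 rose 1.65-fold and Cnr1 rose 1.47-fold. Npy2r fell to 23.4% of control and Sstr2 fell to 29.5%. Across all genes tested 4.25% passed the same threshold, 1.69% higher and 2.56% lower, and among genes averaging 40 or more normalized counts 5.62% did. The values of the groups did not overlap in 6 of the 10 receptors, against 19.7% of the 20006 tested genes. The median log2 fold change was 0.15 over the receptors and 0.00 over all genes tested. In bulk RNA, fewer cells of a type and less RNA per cell cannot be told apart.

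**Figure D1:**
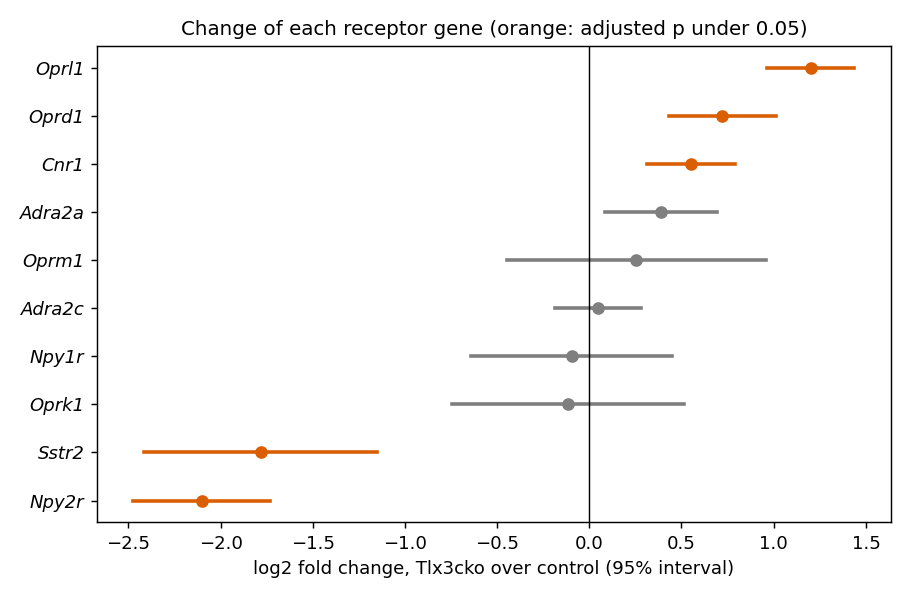
The log2 fold change of each receptor gene (horizontal axis, Tlx3cko over control, n = 3 each) is drawn as a point with its 95% interval, in orange where the adjusted p was under 0.05. Oprl1, Oprd1 and Cnr1 lie to the right of 0 at 1.20, 0.72 and 0.55, Sstr2 and Npy2r lie to the left at -1.78 and -2.10, and the other receptors are drawn in grey.

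The sequence just upstream of the transcription start is shown for the 4 receptor genes with the largest changes, a pair that rose and a pair that fell, so that their promoters can be set side by side. Each run is 250 bases, 5′ to 3′ on the strand of the gene, from RefSeq on GRCm38.p6, and 9 of the 10 receptors had an entry in that table, Oprk1 being the exception. Capitals mark matches, on either strand, to 4 motifs: TAAT, the core bound by many homeodomain proteins, of which Tlx3 is one; GGGCGG, the GC box; TATAAA, the TATA box; and TGACGTCA, the cAMP response element, which was added after these sequences were seen. Oprl1 is at chr2:181714766-181715015 (plus strand), Oprd1 at chr4:132144487-132144736 (minus), Npy2r at chr3:82548086-82548335 (minus) and Sstr2 at chr11:113619077-113619326 (plus).
Oprl1: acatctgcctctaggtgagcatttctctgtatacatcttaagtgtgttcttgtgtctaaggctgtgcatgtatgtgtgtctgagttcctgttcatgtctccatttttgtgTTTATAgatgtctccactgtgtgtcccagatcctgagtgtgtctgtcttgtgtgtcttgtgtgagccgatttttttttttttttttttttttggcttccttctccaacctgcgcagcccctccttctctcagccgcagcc
Oprd1: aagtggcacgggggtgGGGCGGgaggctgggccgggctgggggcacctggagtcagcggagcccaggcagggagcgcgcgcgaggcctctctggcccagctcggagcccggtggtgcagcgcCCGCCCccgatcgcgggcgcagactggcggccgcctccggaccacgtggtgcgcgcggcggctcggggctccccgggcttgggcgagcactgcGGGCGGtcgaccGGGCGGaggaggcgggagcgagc
Npy2r: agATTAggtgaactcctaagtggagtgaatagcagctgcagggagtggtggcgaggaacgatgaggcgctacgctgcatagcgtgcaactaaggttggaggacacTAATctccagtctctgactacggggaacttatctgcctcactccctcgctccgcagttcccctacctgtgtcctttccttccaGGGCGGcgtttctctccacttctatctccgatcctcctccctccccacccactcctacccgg
Sstr2: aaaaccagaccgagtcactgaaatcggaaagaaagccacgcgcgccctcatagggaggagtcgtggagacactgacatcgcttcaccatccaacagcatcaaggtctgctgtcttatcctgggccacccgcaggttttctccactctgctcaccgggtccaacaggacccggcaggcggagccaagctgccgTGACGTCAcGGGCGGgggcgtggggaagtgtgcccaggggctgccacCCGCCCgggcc
Of the printed genes that rose, the Oprl1 window had 44.4% G and C and 1 TATAAA match, and the Oprd1 window had 80% G and C and 4 GGGCGG matches. Of those that fell, the Npy2r window had 56.8% G and C, 2 TAAT matches and 1 GGGCGG match, and the Sstr2 window had 63.6% G and C, 2 GGGCGG matches and 1 TGACGTCA match. The window of Cnr1, which also rose but is not printed, had 68.8% G and C and 1 TAAT match. Among receptors that did not pass, the Adra2a window had 1 GGGCGG and 1 TATAAA match. The windows of Oprm1, Adra2c and Npy1r had no match to any of the motifs. The RefSeq starts used for Adra2a, Adra2c, Npy1r, Oprm1 and Cnr1 lie 1108, 247, 230, 87 and 51 bases downstream of the gene starts in GENCODE. Their windows thus lie partly or wholly inside the annotated gene, whereas the printed windows end at most 15 bases before it. No marked motif overlapped another. Of 32536 windows of this length, 54.8% held TAAT, 33% held GGGCGG, 12.3% held TATAAA and 1.56% held TGACGTCA, and the median window had 52.4% G and C. A match describes the letters and does not show that a factor binds there.

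The opioid family is taken first. Oprl1 (ENSMUSG00000027584, chr2:181715016-181720985, plus strand on GRCm38, 7 merged exons) encodes the nociceptin receptor. Its normalized counts were 258, 248 and 273 in control replicates 1, 2 and 3, and 572, 610.2 and 612 in Tlx3cko replicates 1, 2 and 3. The lowest Tlx3cko library was above the highest control library by more than the whole spread of either group. The means were 259.7 ± 12.3 and 598 ± 22.8 (SD, n = 3 each), or 1.20 as log2 fold change (standard error 0.11, 95% interval 0.97 to 1.44, adjusted p = 2.95e-05). The call held in each of the 15 alternative fits, including the comparison with control replicate 3 alone, with a highest adjusted p of 0.00311.

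Oprd1 (ENSMUSG00000050511, chr4:132110726-132144486, minus strand, 3 exons) encodes the delta opioid receptor, for which enkephalins are ligands. It had 284, 228 and 258 normalized counts in control mice and 426, 469.8 and 374 in Tlx3cko mice. All 3 Tlx3cko libraries lay above all control libraries. The mean rose from 257 ± 27.8 to 423 ± 48.0 normalized counts (SD, n = 3 each), or 0.72 as log2 fold change (standard error 0.13, 95% interval 0.43 to 1.01, adjusted p = 0.00693). Leaving out any 1 library kept the call, with adjusted p from 0.00870 to 0.0436, whereas control replicate 3 alone gave 0.71 on the log2 scale with an adjusted p of 0.0805.

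Oprm1 (ENSMUSG00000000766, chr10:6758506-7038198, plus strand, 22 merged exons over 31 annotated transcripts) encodes the mu opioid receptor, the main target of morphine. Its normalized counts were 286, 92.8 and 279 in control mice and 185, 289 and 315 in Tlx3cko mice. Control replicate 2 stood far below the other controls, and the groups overlapped. The fitted log2 fold change of Oprm1 was 0.26 (standard error 0.32, 95% interval -0.45 to 0.96, adjusted p = 0.813), and without control replicate 2 it turned to -0.11 (adjusted p = 0.907). The coefficient of variation of Oprm1 over the control libraries was 50%, where counting error alone gives 6.51%, so read depth does not set its precision. Of its exonic bases, 96 (1.19%) lie opposite exons of Ipcef1, and whether the counts used strand is not given in the sources used here.

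Oprk1 (ENSMUSG00000025905, chr1:5588466-5606131, plus strand) encodes the kappa opioid receptor, at which dynorphins act. It had the fewest reads of the 10 receptors in control DRGs, with 43.2, 38.9 and 46.3 normalized counts in control mice against 46.2, 43.3 and 29.5 in Tlx3cko mice. The groups overlapped, and Tlx3cko replicate 3 was the lowest of the 6. For Oprk1 the log2 fold change was -0.11 (standard error 0.29, 95% interval -0.74 to 0.51, adjusted p = 0.918), and it was 0.065 without Tlx3cko replicate 3 (adjusted p = 0.975). Counting error alone gives a coefficient of variation of 14.8% for Oprk1 in control libraries. The 95% interval spans changes of either sign, and a change within it was not resolved with 3 mice a group.

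**Figure D2:**
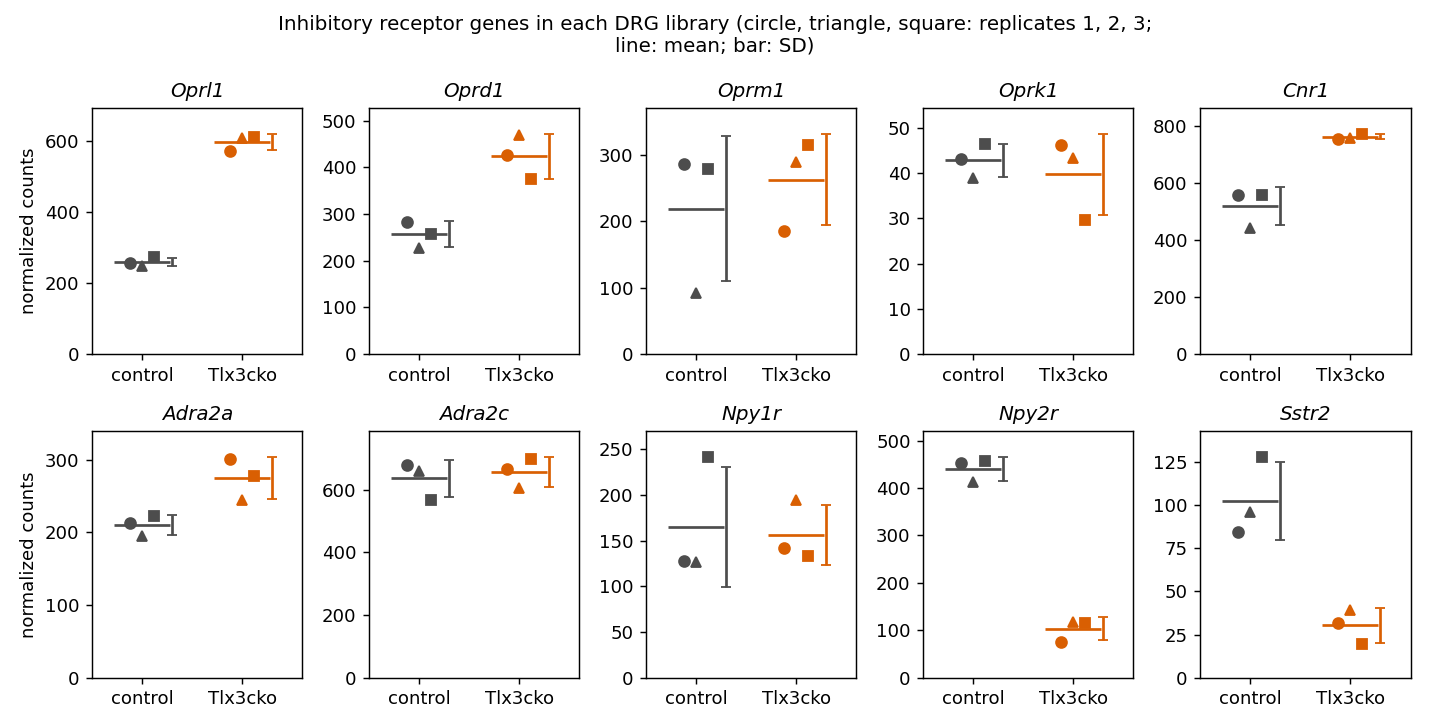
Normalized counts (vertical axis of each panel, from 0) of the 10 receptor genes in every library, with circles, triangles and squares for replicates 1, 2 and 3, a line for the mean and a bar for the SD, control in grey and Tlx3cko in orange. The groups stand apart in Oprl1, Oprd1, Cnr1, Adra2a, Npy2r and Sstr2, while single control libraries stand away from their group in Oprm1 (replicate 2 at 92.8) and Npy1r (replicate 3 at 241).

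Within the opioid family, the share of Oprl1 in the level per length was larger in Tlx3cko libraries under both lengths tried. Per kilobase of exon, Oprl1 made up 42.4% of the summed level of the 4 opioid receptors in control and 52.9% in Tlx3cko libraries, on average over 3 libraries each. Oprd1 made up 38.8% and 34.9%, Oprm1 15.9% and 10.8%, and Oprk1 2.85% and 1.44%. The summed normalized counts of the family were 608 to 871 in control libraries and 1229 to 1412 in Tlx3cko libraries, which did not overlap. These shares are descriptions with no test, and they depend on the length used for Oprm1. Per kilobase of the longest transcript, Oprm1 made up 34.8% in control and 25.9% in Tlx3cko libraries, and Oprl1 35.0% and 46.6%.

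Cnr1 (ENSMUSG00000044288, chr4:33924593-33948831, plus strand) encodes the CB1 receptor, the target of endocannabinoids and of tetrahydrocannabinol in neurons. Its normalized counts were 557, 442 and 560.0 in control mice and 756, 759.8 and 773 in Tlx3cko mice. The Tlx3cko libraries were all higher than the controls and nearly equal to each other. Their coefficient of variation of 1.16% was below the 3.74% that counting error alone gives, so it is no measure of precision. The mean rose from 519.6 ± 67.4 to 763 ± 8.87 normalized counts (SD, n = 3 each), or 0.55 as log2 fold change (standard error 0.11, 95% interval 0.31 to 0.79, adjusted p = 0.0114). The call was lost without Tlx3cko replicate 3, at 0.54 on the log2 scale (adjusted p = 0.0561), and with control replicate 3 alone, at 0.44 (adjusted p = 0.126).

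The alpha-2 adrenergic receptors respond to noradrenaline and to clonidine. Adra2a (ENSMUSG00000033717, chr19:54044151-54048982, plus strand, 1 merged exon) had 213, 194 and 223 normalized counts in control mice and 301, 244 and 278 in Tlx3cko mice. Every Tlx3cko library was above every control library, yet Adra2a did not pass the threshold. The log2 fold change of Adra2a was 0.39 (standard error 0.14, 95% interval 0.08 to 0.69, adjusted p = 0.183), and the adjusted p ranged from 0.139 to 0.620 over the 15 alternatives. Adra2c (ENSMUSG00000045318, chr5:35278319-35281763, plus strand, 1 exon) had 680.0, 659 and 568 normalized counts in control mice and 664, 605 and 698 in Tlx3cko mice. The groups overlapped almost fully. The same value for Adra2c was 0.05 (standard error 0.11, adjusted p = 0.907), with a 95% interval of -0.18 to 0.28, and it was -0.029 without control replicate 3 (adjusted p = 0.953).

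The neuropeptide Y receptors differed from each other in these libraries. Npy2r (ENSMUSG00000028004, chr3:82538383-82548084, minus strand) encodes the Y2 receptor, which sits on the terminals of sensory neurons and limits transmitter release. Its normalized counts were 452, 412 and 456 in control mice and 75.1, 118 and 116 in Tlx3cko mice. The highest Tlx3cko library stood far below the lowest control library. Mean normalized counts fell from 440.1 ± 24.5 to 103 ± 24.3 (SD, n = 3 each), or -2.10 as log2 fold change (standard error 0.17, 95% interval -2.47 to -1.73, adjusted p = 1.32e-05), and the call held in each of the 15 alternatives.

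Npy1r (ENSMUSG00000036437, chr8:66697192-66706792, plus strand) encodes the Y1 receptor. It had 127, 127 and 241 normalized counts in control mice and 141, 194 and 133 in Tlx3cko mice. Control replicate 3 was the highest library and the groups overlapped. The fitted log2 difference was -0.10 (standard error 0.25, 95% interval -0.64 to 0.45, adjusted p = 0.921). Its sign rested on single libraries, since leaving out control replicate 3 gave 0.29 (adjusted p = 0.645) and leaving out Tlx3cko replicate 3 gave 0.01 (adjusted p = 0.995). The 95% intervals of Npy1r and Npy2r did not overlap, but the difference between their changes was not tested. Per kilobase, Npy2r made up 73.7% of the summed level of this pair in control and 40.2% in Tlx3cko libraries.

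Sstr2 (ENSMUSG00000047904, chr11:113619342-113626028, plus strand) encodes a somatostatin receptor and the main target of octreotide. It had 84.2, 95.7 and 128 normalized counts in control mice and 31.8, 39.4 and 19.7 in Tlx3cko mice. All Tlx3cko libraries were below all control libraries. Mean normalized counts fell from 103 ± 22.5 to 30.3 ± 9.93 (SD, n = 3 each), or -1.78 as log2 fold change (standard error 0.29, 95% interval -2.41 to -1.15, adjusted p = 0.00301). The call held in each of the 15 alternatives, with a highest adjusted p of 0.0219, although Tlx3cko libraries held 20 to 33 reads on Sstr2 and counting error alone gives a coefficient of variation of 19% there.

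**Figure D3:**
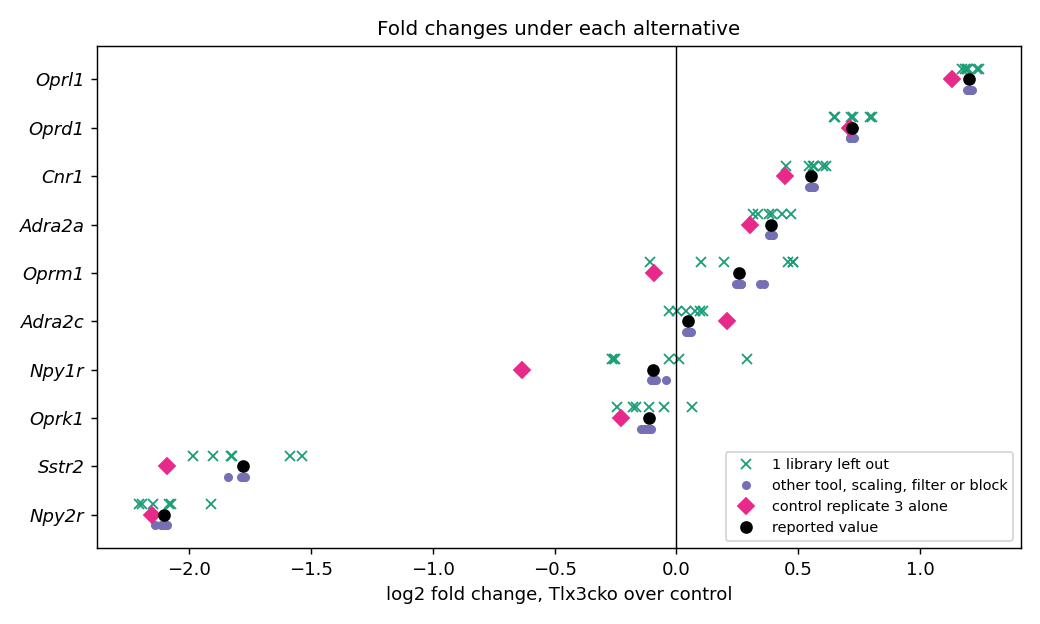
The log2 fold change of each receptor gene (horizontal axis, Tlx3cko over control) as reported (black circle), with 1 library left out (green cross), with another tool, scaling, filter or block (violet dot) and with control replicate 3 alone (pink diamond). Oprl1, Oprd1, Cnr1 and Adra2a stay to the right of 0 and Npy2r and Sstr2 to the left in every fit drawn, while the marks of Oprm1, Adra2c, Npy1r and Oprk1 lie on both sides.

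Levels can be compared between genes after division by the length of their merged exons. In control DRGs the order by mean was Adra2c at 185 normalized counts per kilobase, Npy2r at 130.1, Cnr1 at 80.6, Oprl1 at 69.2, Oprd1 at 63.8, Sstr2 and Npy1r at 47.8 each, Adra2a at 43.4, Oprm1 at 27.3 and Oprk1 at 4.67. From Cnr1 down to Adra2a, each neighbouring pair in that order had overlapping values over the libraries and is not separated. In Tlx3cko DRGs Adra2c again stood at the top, at 190.3 normalized counts per kilobase, followed by Oprl1 at 159, Cnr1 at 118 and Oprd1 at 105. Adra2a at 56.8, Npy1r at 45.2, Oprm1 at 32.7 and Npy2r at 30.5 came next, each overlapping its neighbour, and Sstr2 at 14.1 and Oprk1 at 4.34 closed the order. The place of Npy2r thus moved from below Adra2c to below Oprm1, and Oprl1 moved to just below Adra2c. Division by the longest transcript places Oprm1 at 90.6 in control and 108.6 in Tlx3cko DRGs, since its many short transcripts merge into a long exon total. With that length Oprl1 at 193 comes before Adra2c at 190.3 in Tlx3cko DRGs, so the top of that order rests on the length used.

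**Figure D4:**
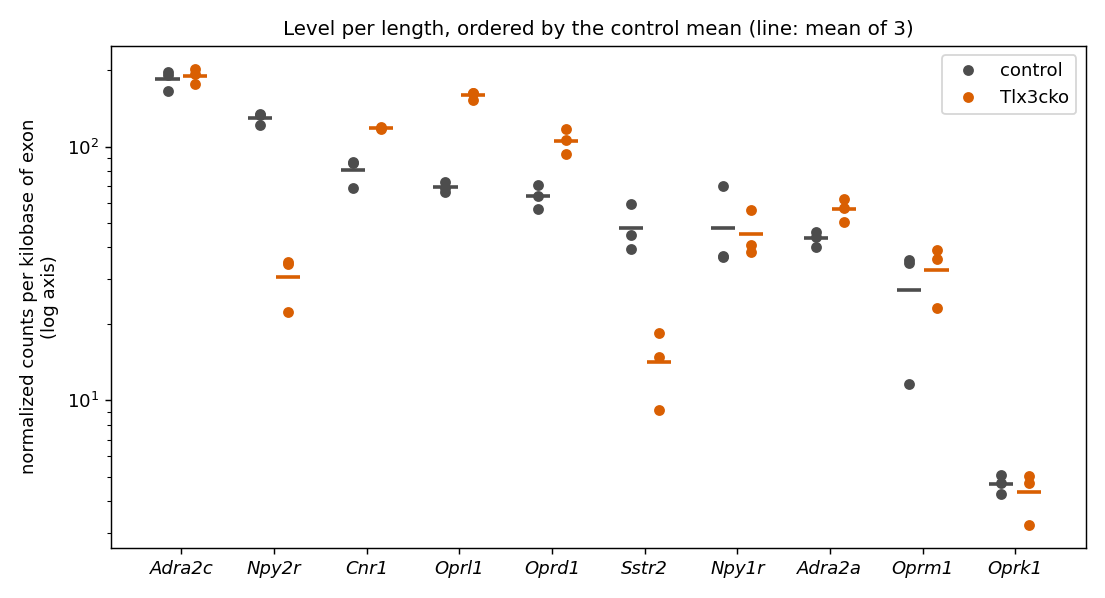
Normalized counts per kilobase of merged exon (vertical log axis) for the 10 receptor genes in each library, ordered by the control mean, with control in grey, Tlx3cko in orange and a line at each mean of 3. Adra2c stays near 185 to 190.3, Oprl1 rises from 69.2 to 159, and Npy2r drops from 130.1 to 30.5.

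Marker genes of neuron classes moved between the same groups. All 7 NP1 markers (genes of the Mrgprd-expressing non-peptidergic nociceptors) and all 4 markers of TH-expressing C-fibre touch neurons were lower in Tlx3cko DRGs, as were 3 of 4 NP2 and 7 of 8 NP3 markers, which belong to itch-linked neurons. Across all genes tested 2.56% were lower and 1.69% were higher past the same threshold. The summed NP1 level was 21132.7 to 25274.5 normalized counts in control and 11095.2 to 12473.8 in Tlx3cko libraries, and NP3 7486 to 8912 and 4951 to 5263. Most of the NP3 sum was Jak1, with means of 5960 in control and 4578 in Tlx3cko libraries (76.8% of control). Nppb, Sst, Il31ra and Cysltr2 stood at 0.881%, 1.84%, 4.38% and 9.08% of control, and Htr1f, Osmr and Nts at 37.3%, 48.6% and 66.1%. In the NP2 list Mrgpra3, Mrgprb4 and Mrgprb5 summed to 415 to 579 in control and 8.86 to 26.2 in Tlx3cko libraries, while Mrgprx1 stood at 227 ± 120.0 and 434 ± 60.4 normalized counts (SD, n = 3 each), did not overlap between the groups and did not pass (adjusted p = 0.0798). The touch neuron sum was 1835 to 3351 and 678 to 864 normalized counts. Npy2r and Sstr2 moved in the direction of these lists. Of the peptidergic nociceptor markers 2 of 7 were higher, with sums of 23229 to 25014 in control and 35877 to 39208 in Tlx3cko libraries, and of the myelinated neuron markers 3 of 6 were higher, with sums of 27981 to 30344 and 35968 to 38479. Oprl1, Oprd1 and Cnr1 moved in the direction of those. Of the 2 TRPM8 neuron markers 1 was lower, with sums of 461 to 523 and 339.5 to 387. The NP2 marker Mrgprb4 had 190, 181 and 261 reads in control mice and 0, 2 and 0 in Tlx3cko mice, and the NP3 marker Nppb at most 3 reads in any Tlx3cko library, while the other markers of these lists were detected in all 6 libraries. Since lists moved both ways, any receptor that changed shares its direction with some list. The part of these neuron classes in the changes of the receptors was not tested.

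Markers of cells other than neurons shifted unevenly. None of the 4 satellite glia, 5 Schwann cell, 5 mural, 6 immune or 5 blood markers passed the edgeR threshold. Among fibroblast markers 3 of 4 were lower, with sums of 2876 to 3132 normalized counts in control and 1997 to 2331 in Tlx3cko libraries. Of the endothelial markers 1 of 5 was higher, with sums of 807 to 960 and 1089 to 1164, and of the skeletal muscle markers 1 of 5 was higher, with sums of 87.7 to 1507 and 1301 to 2536. Of 5 spinal cord markers, Olig2, Slc6a5 and Lbx1 had at most 3 reads in every library and Slc32a1 at most 4, whereas Pax2, the 1 that was tested, was lower in Tlx3cko DRGs, with 26, 34 and 24 reads in control mice against 5, 1 and 6 in Tlx3cko mice (-2.65 on the log2 scale, adjusted p = 0.0164). The part of these cells in the changes of the receptors was not tested.

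The other genes of the pathway were read from 8 lists with 97 genes, of which 93 were tested. Past the threshold were 12 lower and 8 higher, 21.5% of those tested, beside 4.25% of all genes tested. Among other receptors of the same subfamilies, 1 of 6 tested passed: Sstr1, a second somatostatin receptor, rose from 38.1 ± 19.9 to 135 ± 34.2 normalized counts (SD, n = 3 each), with 55, 35 and 25 reads in control and 166, 73 and 151 in Tlx3cko libraries. The change was 1.85 on the log2 scale (standard error 0.34, adjusted p = 0.00611), opposite in sign to that of Sstr2. The call for Sstr1 held in each of the 15 alternatives. The alpha-2 receptor gene Adra2b had 8 to 23 reads in every library and Cnr2, the other cannabinoid receptor, had at most 6.

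Among 19 other Gi-coupled receptors, 3 were lower and 3 were higher. The serotonin receptor Htr1a fell from a mean of 163 ± 60.1 normalized counts to one of 44.4 ± 13.8 (SD, n = 3 each, -1.89 on the log2 scale, adjusted p = 0.00289). Htr1f fell by 1.42 on the log2 scale and Ptger3, a prostaglandin E2 receptor, by 0.56 (adjusted p = 0.0131 and 0.00776). The muscarinic receptor Chrm2 rose from 239 ± 61.1 to 703 ± 43.9 normalized counts (SD, n = 3 each, 1.56 on the log2 scale, adjusted p = 7.12e-05). The metabotropic glutamate receptors Grm4 and Grm8 rose by 0.50 and 0.44 on the log2 scale (adjusted p = 0.0177 and 0.0474). Htr1a and Chrm2 kept their calls in each alternative. The call of Htr1f was lost without control replicate 3 (adjusted p = 0.0702) or Tlx3cko replicate 2 (0.0564), and that of Ptger3 without Tlx3cko replicate 2 (0.0564). Grm4 lost its call without control replicate 2 (0.0741), control replicate 3 (0.0732), Tlx3cko replicate 1 (0.0594) or Tlx3cko replicate 2 (0.0644), and Grm8 without any 1 of the 6 libraries (0.0732 to 0.140). Htr1f also stands on the NP3 list. The GABA-B receptor subunit Gabbr1 stood at 9422 ± 716 normalized counts in controls and at 9555 ± 426 in Tlx3cko DRGs.

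Of the 7 peptide ligand genes tested, 2 were lower. Penk, the precursor of the enkephalins that act on Oprd1 and Oprm1, had 29, 57 and 126 reads in control mice and 13, 4 and 15 in Tlx3cko mice. The groups did not overlap, and control replicate 3 held the most. Penk fell to 17.2% of control (adjusted p = 0.00782), and the call was lost without control replicate 3, at -1.98 on the log2 scale (adjusted p = 0.0572). Sst, the ligand of Sstr2 and an NP3 marker, had 313, 600 and 203 reads in control mice against 6, 8 and 4 in Tlx3cko mice, or -5.80 as log2 fold change (standard error 0.53, adjusted p = 2.88e-05). Pdyn, the dynorphin precursor, had at most 7 reads in any library, and Pnoc, the nociceptin precursor, at most 6. Npy did not pass, with 2, 2 and 8 reads in control and 158, 8 and 0 in Tlx3cko libraries (adjusted p = 0.125).

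None of the 7 genes of endocannabinoid synthesis and breakdown passed the edgeR threshold. Among the most abundant, Abhd12 had 3228 ± 91.1 and 3437 ± 16.3 normalized counts, and Mgll, the lipase that degrades 2-arachidonoylglycerol, had 1464 ± 80.1 and 1295 ± 95.9, in control and Tlx3cko DRGs. Of 12 G protein subunits, 2 were lower: Gnao1, the alpha subunit of Go, fell by 0.34 on the log2 scale (16187 ± 442 to 12789 ± 105 normalized counts, adjusted p = 0.00661) and Gng2, a gamma subunit, by 0.42 (4125 ± 194 to 3093 ± 136, adjusted p = 0.00508). The Gnao1 call was lost without Tlx3cko replicate 2 (adjusted p = 0.0573), and the Gng2 call held in each alternative. Of 16 effectors tested, 1 passed: Cacna2d2, an auxiliary calcium channel subunit that binds gabapentin, rose by 0.53 (adjusted p = 0.0102) and lost its call without control replicate 2 (0.0502) or Tlx3cko replicate 2 (0.0532). The presynaptic calcium channel gene Cacna1b stood at 2479 ± 222 normalized counts in controls and at 2666 ± 141 in Tlx3cko DRGs (SD, n = 3 each).

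Genes that end receptor signalling moved in both directions. Of 10 receptor kinases, arrestins and partners, Grk2 and Grk3, which phosphorylate active receptors, fell by 0.37 and 0.66 on the log2 scale (adjusted p = 0.00755 and 0.0119), and Arrb1, the gene of beta-arrestin 1, rose by 0.37 (adjusted p = 0.0393). The Grk2 call was lost without Tlx3cko replicate 3 (adjusted p = 0.0661), that of Grk3 without control replicate 3 (0.0572) or Tlx3cko replicate 2 (0.0764), and that of Arrb1 without control replicate 1 (0.111), control replicate 2 (0.157), Tlx3cko replicate 1 (0.119), Tlx3cko replicate 2 (0.112) or Tlx3cko replicate 3 (0.0651). RGS proteins speed the shut-off of G protein alpha subunits. Of the 16 genes on their list, which includes the RGS binding proteins Rgs7bp and Rgs9bp, 3 were lower and 2 higher. Rgs8 fell from 1563 ± 457 to 357 ± 21.3 normalized counts (log2 fold change -2.13, adjusted p = 1.29e-05), Rgs4 from 17701 ± 3001 to 9043 ± 179 (-0.97, adjusted p = 0.000112) and Rgs10 from 1842 ± 306 to 939.6 ± 227 (-0.97, adjusted p = 0.00312), SD with n = 3 each. Rgs11 rose by 0.71 (adjusted p = 0.00522) and Rgs6 by 0.54 (adjusted p = 0.0355). Rgs8, Rgs4, Rgs10 and Rgs11 kept their calls in each alternative, whereas Rgs6 lost its call without control replicate 2 (0.144), control replicate 3 (0.129), Tlx3cko replicate 1 (0.0652), Tlx3cko replicate 2 (0.141) or Tlx3cko replicate 3 (0.0903). With control replicate 3 alone, the calls of Htr1f, Grm8, Cacna2d2, Grk2 and Arrb1 were also lost, at adjusted p of 0.0547, 0.395, 0.0839, 0.121 and 0.544.

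**Figure D5:**
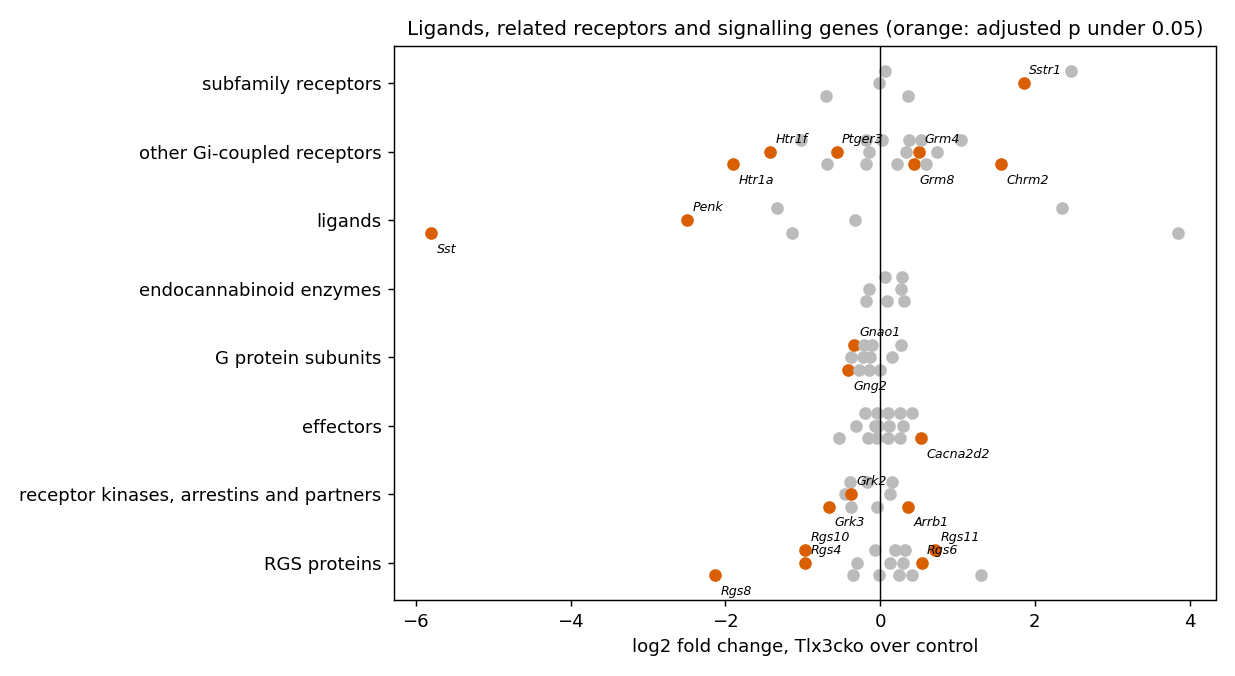
The log2 fold change (horizontal axis, Tlx3cko over control) of the 93 tested genes of 8 lists related to the receptors, 1 list to a line, with genes at an adjusted p under 0.05 in orange and named. The 20 orange points are 12 to the left of 0, with Sst farthest at -5.80, and 8 to the right, with Sstr1 farthest at 1.85.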

How the data were processed

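DRG RNA of 3 mice per genotype was sequenced, and the authors deposited raw read counts for each gene, which were used as they stand. Per the submitters' processing notes, STAR 2.5.2a and the mm10 build were used. The counting program, the annotation and the use of strand are not given in the sources used here. Names and positions came from GENCODE M21 on GRCm38 (47224 of 47729 Ensembl identifiers matched a symbol), and 208 further loci lie outside the annotation.

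The software was R 4.3.3 with DESeq2 1.42.0, limma 3.58.1 and edgeR 4.0.16. A gene needed 10 or more counts over the 6 libraries. After TMM normalization, groups were compared by the quasi-likelihood F-test of edgeR (glmQLFit, glmQLFTest) without covariates, with Benjamini-Hochberg adjustment over 20006 genes and a threshold of 0.05. Normalized counts refer to an effective library size of 14974185, the mean of the 6. Standard errors were derived from the fold change and its F statistic. Calls of marker and pathway genes come from the same fit. An exact two-sided permutation test on 1 gene cannot give a p below 0.1 with 3 mice against 3.

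The receptors, gene lists and tests were chosen with earlier results of these data known. Named are all 10 receptors, Tlx3, each pathway gene past the threshold, up to 3 abundant genes of a list, and direct ligands or paralogs of the receptors. Library totals, the range of which is given above, leave counting errors below the spread between mice for most receptors. Replicate libraries differed beyond sampling noise (chi-square per degree of freedom 4.32 to 10.1). No receptor shared a stretch of at least 100 bases at 98% identity with another gene's transcripts (blastn). The test was checked on simulated counts. The 15 alternatives were 3 other normalizations, DESeq2, limma-voom, 2 other filters, the replicate number as a block, each of 6 libraries left out, and control replicate 3 alone, where the lone control is assumed to vary like the Tlx3cko libraries; a stricter threshold and the longest transcript as length were tried too. Marker sums without Scn10a or Mrgprx1, and family shares by longest transcript, were added after seeing the data.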

Additional observations from a re-analysis of the deposited data

How the results depend on the processing

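Oprl1, Npy2r and Sstr2 kept their calls in all 15 alternative fits. At an edgeR adjusted p under 0.01, 4 receptors passed, 2 of them higher, and Cnr1 (0.0114) did not. The receptors past the threshold numbered 5, 4 to 5 with 1 library left out, and 3 (1 of them higher) with control replicate 3 alone. Among receptors that did not pass, Adra2a kept its sign in all 15 alternatives, at 0.30 to 0.47 on the log2 scale. The signs of the others were less firm. On the log2 scale and with 1 library left out, Oprm1 ran from -0.11 (without control replicate 2) to 0.48, Oprk1 from -0.24 to 0.065 (without Tlx3cko replicate 3), Adra2c from -0.029 (without control replicate 3) to 0.11, and Npy1r from -0.27 to 0.29 (without control replicate 3; 0.01 without Tlx3cko replicate 3). Oprm1 was also -0.092 with control replicate 3 alone. Tlx3 was -0.54 to -0.39 with 1 library left out and -0.38 with control replicate 3 alone, where its call was lost. All genes past the threshold numbered 851, against 1529 with no filter on low counts, 1149 with DESeq2, 553 with control replicate 3 alone, 418 at an adjusted p under 0.01 and 488 to 938 with 1 library left out (530 without control replicate 2, 488 without Tlx3cko replicate 2, 512 without Tlx3cko replicate 3). Pathway genes past it numbered 20, 13 at 0.01 and 11 to 18 with 1 library left out, the lowest without Tlx3cko replicate 2. Divided by the longest transcript, the control levels of Oprm1, Oprk1 and Oprl1 were 90.6, 9.15 and 83.7 normalized counts per kilobase, and the Tlx3cko levels of Oprm1, Oprk1, Oprl1 and Cnr1 were 108.6, 8.49, 193 and 131. Libraries with the same replicate number did not deviate together (correlations -0.129, -0.0159 and -0.109 over 13373 genes). With 3 libraries a group and sex unequal between the groups, this check cannot show whether the numbers pair the mice. With the replicate number as a block 770 genes passed, and no receptor's call changed. The Penk call failed under limma-voom (adjusted p = 0.0505), Grm8 with library totals alone (0.0513) and with the block (0.0915), and Arrb1 with the block (0.0572). The causes of these differences were not tested.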

Other observations

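The single-gene spread of 3 genes was uneven between libraries of 1 genotype. Control replicate 2 held 93 reads on Oprm1, where the other controls held 265 and 350. Control replicate 3 held 302 reads on Npy1r, where the other controls held 118 and 127, and Tlx3cko replicate 1 held 158 reads on Npy, where no other library exceeded 8. With 3 libraries a group, no test for a library that stands apart was made, and these genes were chosen after their values were seen.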
